A study of Mus musculus with 8 samples.

Results

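The genes described here encode the DNA replication machinery of S phase, from the complex that marks replication origins to the polymerases, the sliding clamp, the enzymes that supply nucleotides and the transcription factor E2F1. The list holds 46 genes, picked by name and function with earlier results of these data known. Of these, 44 had at least 1 probe on the array, 55 probes among 41174 in all, and *Rpa1* and *Rrm2* were not matched to a probe and are not analysed here. RNA was measured in the hearts of 4 wild-type (WT) and 4 SIRT1 knockout (SIRT1 KO) mouse embryos at E18.5, an embryonic day shortly before birth, with 1 heart per Agilent one-color array. SIRT1 is a protein deacetylase that depends on NAD+ and acts largely in the nucleus, and the SIRT1 KO embryos lack it in the whole body from the germ line onward, so that no cell type was targeted. Both groups were of the C57BL/6 strain in the labels (C57BL/6J in the study's methods), were kept on a chow diet and received no treatment, and in the study's methods the embryos came from crosses of heterozygous parents and hearts of both sexes were used.

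Replication starts in G1, when the origin recognition complex, CDC6 and CDT1 load the MCM helicase onto DNA in an inactive form. In S phase CDC45 and the GINS complex join the helicase and activate it, primase and the DNA polymerases copy the opened strands, and PCNA, a ring placed on DNA by replication factor C, holds the polymerases in place. E2F transcription factors drive many of these genes as cells enter S phase. Cardiomyocytes of the late fetal heart still divide and leave the cell cycle in the first days after birth.

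The values are log2 signals relative to each array's 75th percentile, so that 0 means a signal equal to that percentile and 1 unit is a 2-fold difference. That percentile was 939 to 1033 in intensity on the WT arrays but 777 to 906 on the SIRT1 KO arrays, and each array had 59.5% to 64.9% of its probes well above background. The 4 WT arrays shared 1 slide and scan and the 4 SIRT1 KO arrays shared the other, so the slide and the scan cannot be told apart from the genotype and no slide holds a comparison of its own. The *Sirt1* probes do not settle the labels: on 1 probe the log2 fold change was 0.54 (adjusted p = 0.0323 from limma) and on the other -0.11 (adjusted p = 0.589 from limma). The position of these probes in the transcript is not analysed here. The genotypes are therefore those of the labels, and every direction below is that of the hearts labelled SIRT1 KO against those labelled WT. All 10 cardiomyocyte markers were well above background in all 8 hearts, which checks the label of heart tissue. Of the 8 liver markers, 7 could be tested, and their summed level, in multiples of the 75th percentile, ranged from 11.3 to 27.6 in the WT hearts but reached 117 in SIRT1 KO replicate 1 and 61.9 in SIRT1 KO replicate 4, against 18.7 and 13.3 in SIRT1 KO replicates 2 and 3.

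All 44 replication genes were well above background on every array that gave them a value. In the hearts labelled SIRT1 KO, 38 of the 44 had a log2 fold change below 0 against WT, and the median over the 44 was -0.124. Among all 13594 genes tested, 51.6% lay below 0 and the median was -0.0069. These values depended on the scaling of the arrays: all 44 lay below 0 with median scaling (median -0.253, 1 gene called) and with no scaling (median -0.344, 29 called), where the median of all genes was lower too, -0.135 and -0.227. Of all genes, 75.5% lay below 0 with median scaling and 84.9% with no scaling, and 6.96% and 24.8% of all probes were called. The sizes were small, from -0.40 for *Rfc4* to 0.09 for *Pold1*, and only *Rfc4* passed an adjusted p of 0.05 with limma, where 4.58% of all genes did and 0.897% did so downward. An unadjusted p under 0.05 was reached by 6 of the 44, all with lower signal in SIRT1 KO (*Rfc4*, *Orc2*, *Cdc45*, *Orc6*, *Rrm1* and *Cdc6*), which is 13.6% of them, against 20.4% of all genes in either direction and 8.53% downward. The genotypes did not overlap for *Rfc4* and *Orc2*, with SIRT1 KO lower, as they did for 5.61% of all genes; no member had all its SIRT1 KO values above WT, where 8.38% of all genes did. Over all probes, 1250 of 25615 (4.88%) passed, and 1017 of these were higher in SIRT1 KO; this direction depended on the scaling, with 680 of 1784 higher with median scaling and 639 of 6352 with no scaling.

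With the arrays scaled to their 75th percentile, the 95% confidence interval of the fold change lay within 1.5-fold in either direction for 42 of the 44 genes, the exceptions being *Rfc4* and *Tyms*, and for 82% of all genes tested. It did so for 43 of the 44 with quantile normalization or cyclic loess, but for 36 with median scaling and 28 with no scaling. The standard deviation (SD) within a genotype had a median of 0.136 log2 units over the replication genes and the same median of 0.136 over all genes tested, so the small fold changes do not come with an unusual spread. Over all 55 probes, 48 had a negative log2 fold change. Of the 9 genes with several probes, 6 had the same sign on every probe, and *Orc3*, *Pold1* and *Uhrf1* did not. In whole hearts, fewer cells in S phase and less message per cell cannot be told apart.

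Markers of cardiomyocytes and endothelial cells had median fold changes of similar size. Of 10 cardiomyocyte markers, 7 were above 0 in SIRT1 KO with a median log2 fold change of 0.108, and their summed level was 1706 to 1876 multiples of the 75th percentile in the WT hearts and 1788 to 2102 in the SIRT1 KO hearts. With median scaling that median was -0.020 and with no scaling -0.11, so its sign depended on the scaling; with quantile normalization 5 of the 10 were above 0. Of 8 endothelial markers, 7 were below 0 with a median of -0.097, close to the -0.124 of the replication genes, and their summed level was 60.6, 59.8 and 60.2 in SIRT1 KO replicates 1, 2 and 3, below the 63.5 to 66.7 of the WT hearts, but 68.0 in replicate 4. With median scaling the endothelial median was -0.226 and with no scaling -0.317, and all 8 lay below 0 under both. None of these 18 markers passed the threshold with limma. Among 10 erythroid markers tested, 4 were below 0 and 6 above, and *Hbb-y*, an embryonic globin, and *Epor*, the erythropoietin receptor, rose (log2 fold changes 0.92 and 0.66, adjusted p = 0.00782 and 0.0154 from limma). These 2 calls are 20% of the erythroid markers, against 4.58% of all genes tested. Another 2 erythroid markers had an unadjusted p under 0.05 with limma and lower signal in SIRT1 KO. The lowest log2 fold change among the 10 was -0.68. The part of these cell types in the values of the replication genes was not tested.

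**Figure D1:**
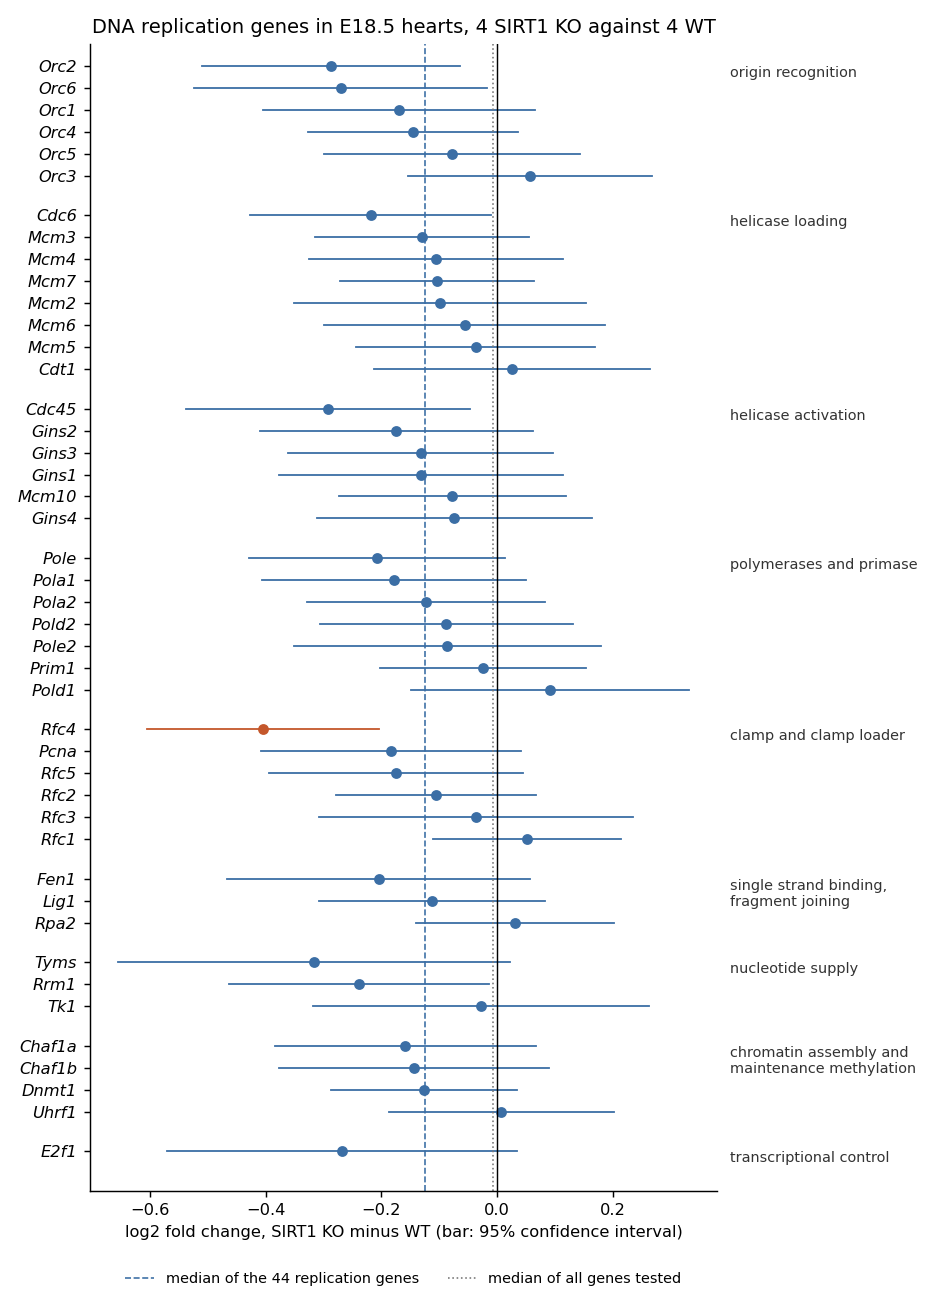
Log2 fold change (SIRT1 KO minus WT) of the 44 replication genes with its 95% confidence interval, grouped by role; the dashed line is the median of the 44 genes (-0.124) and the dotted line that of all genes tested (-0.0069). Most points lie left of 0, and only *Rfc4*, in orange, passed an adjusted p of 0.05 with limma.

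The promoters of the genes were searched for short motifs. The stretches below are shown because they hold E2F words close to the start, beside those of the 2 genes whose genotypes did not overlap. RefSeq promoter windows of the GRCm38.p6 assembly, from 250 bases before to 50 bases after the start of a gene, were given for 40 of the 46 genes and searched on both strands for the E2F words TTTCCCGC, TTTCGCGC, TTTGCCGC and TTTGGCGC. At least 1 of these words was found in 16 of the 40 genes (40.0%), in 2 of 32 mitosis genes with a window (6.25%) and in 704 of all 27025 genes (2.6%). A second motif, the cell cycle homology region known from genes of G2 and mitosis (TTTGAA or TTTAAA), was found in 27.5% of the replication genes, in 78.1% of the mitosis genes and in 30.6% of all genes. The CCAAT box, which can share an end base with an E2F word, as it does in *Mcm7*, was found in 62.5%, 71.9% and 41.1%. Both were searched on both strands. For each motif, a gene counted when any of its windows held it. Each stretch is the 120 bases before the start, read 5′ to 3′ on the strand of the gene, with E2F words of either strand in capitals.
*Mcm6*, a helicase subunit (chr1:128359706-128359825, minus strand): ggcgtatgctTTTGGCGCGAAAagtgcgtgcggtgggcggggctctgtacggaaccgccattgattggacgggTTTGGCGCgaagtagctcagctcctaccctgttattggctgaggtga
*Orc1*, an origin recognition subunit (chr4:108579334-108579453, plus strand): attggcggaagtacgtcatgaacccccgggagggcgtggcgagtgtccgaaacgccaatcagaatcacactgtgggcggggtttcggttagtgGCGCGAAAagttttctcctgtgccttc
*Orc3*, an origin recognition subunit (chr4:34614943-34615062, minus strand): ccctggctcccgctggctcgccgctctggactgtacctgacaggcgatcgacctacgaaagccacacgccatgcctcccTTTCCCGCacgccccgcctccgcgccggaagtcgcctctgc
*Gins3*, a helicase activator (chr8:95633439-95633558, plus strand): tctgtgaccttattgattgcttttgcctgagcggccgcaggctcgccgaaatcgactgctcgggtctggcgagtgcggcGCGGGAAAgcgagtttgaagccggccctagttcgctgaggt
*Rfc3*, a clamp loader subunit (chr5:151651209-151651328, minus strand): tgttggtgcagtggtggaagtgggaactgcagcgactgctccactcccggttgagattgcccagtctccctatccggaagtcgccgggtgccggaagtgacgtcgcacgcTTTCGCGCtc
*Rfc4*, a clamp loader subunit (chr16:23127731-23127850, minus strand): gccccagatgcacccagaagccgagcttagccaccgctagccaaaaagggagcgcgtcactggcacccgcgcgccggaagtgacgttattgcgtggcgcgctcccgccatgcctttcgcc
*Orc2*, an origin recognition subunit, the more upstream of its listed starts (chr1:58505110-58505229, minus strand): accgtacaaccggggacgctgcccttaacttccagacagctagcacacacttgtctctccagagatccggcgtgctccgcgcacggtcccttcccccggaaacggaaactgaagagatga

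The *Mcm6* stretch holds 3 E2F words, 2 of them overlapping on opposite strands, and the *Orc1*, *Orc3*, *Gins3* and *Rfc3* stretches hold 1 each. Neither *Rfc4* nor *Orc2*, the genes whose genotypes were fully separate, has such a word in any of its windows. The 16 measured genes with an E2F word had a median log2 fold change of -0.095, and 12 of them lay below 0; the 22 measured genes with a window and no such word had a median of -0.152, and 20 of them lay below 0. These words describe the letters of the window only, and binding was not measured.

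The clamp and its loader held the single gene past the threshold. *Rfc4* encodes a small subunit of replication factor C, the loader that opens the PCNA ring and closes it around DNA. Its log2 signal was 3.18, 3.27, 3.28 and 3.21 in WT replicates 1 to 4 and 2.67, 2.73, 3.0 and 2.91 in SIRT1 KO replicates 1 to 4. Every SIRT1 KO heart was therefore below every WT heart. *Rfc4* fell to 75.6% of the WT level, a log2 fold change of -0.40 (standard error 0.089, limma's adjusted p = 0.0357; 95% confidence interval -0.60 to -0.20). By the exact permutation test, two-sided, p was 0.0286, which is the lowest that 4 hearts against 4 can give. With 1 heart left out the fold change lay between -0.35 and -0.46, and the adjusted p from limma passed 0.05 only without SIRT1 KO replicate 3 (0.0201) or SIRT1 KO replicate 4 (0.0477). It was 0.0899 without SIRT1 KO replicate 1, 0.100 without SIRT1 KO replicate 2, and 0.0674, 0.0944, 0.103 and 0.0811 without WT replicates 1, 2, 3 and 4. With SIRT1 KO replicates 1 and 4 both left out, the hearts with the most liver marker signal, the fold change of *Rfc4* was -0.37 (adjusted p = 0.148 from limma). The call was also lost with an analysis of variance per probe in place of limma (adjusted p = 0.0687) and with no filter on dim probes (adjusted p = 0.0748 from limma).

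None of the other subunits of the loader passed the threshold, and their fold changes were not tested against that of *Rfc4*. *Rfc5*, also a small subunit, had a log2 fold change of -0.17 (95% confidence interval -0.39 to 0.046, which overlaps that of *Rfc4*), and *Rfc2*, another, had -0.11 and -0.18 on its other probe. *Rfc3*, with an E2F word just upstream of its start, had -0.036. *Rfc1*, the large subunit, had 0.05, with 2 SIRT1 KO hearts above the highest WT heart and none below the lowest. *Pcna*, the clamp itself, had log2 signals of 5.02, 5.15, 5.13 and 5.17 in the WT hearts and 4.77, 4.81, 5.17 and 5.01 in the SIRT1 KO hearts. Here SIRT1 KO replicates 1, 2 and 4 lay below all WT hearts and replicate 3 lay among them, a log2 fold change of -0.18 (95% confidence interval -0.41 to 0.042, adjusted p = 0.325 from limma).

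Among the 6 subunits of the origin recognition complex, which binds origins and recruits the helicase loaders, 5 had a log2 fold change below 0 and none passed the threshold. *Orc2* had log2 signals of 1.27, 1.45, 1.19 and 1.52 in the WT hearts and 0.92, 1.04, 1.18 and 1.14 in the SIRT1 KO hearts. All SIRT1 KO values were below all WT values, although the highest SIRT1 KO heart and the lowest WT heart were only narrowly apart. The log2 fold change of *Orc2* was -0.29 (standard error 0.099, adjusted p = 0.141 from limma; exact two-sided permutation test p = 0.0286). *Orc6* had 3.44, 3.68, 3.47 and 3.65 in the WT hearts and 3.15, 3.40, 3.51 and 3.10 in the SIRT1 KO hearts, and its genotypes overlapped through SIRT1 KO replicate 3 (log2 fold change -0.27, adjusted p = 0.206 from limma). *Orc1*, a subunit that varies over the cell cycle in mammals, had log2 signals of -3.23, -3.16, -3.13 and -3.04 in the WT hearts and -3.45, -3.38, -3.39 and -3.02 in the SIRT1 KO hearts. For *Orc1*, SIRT1 KO replicate 4 was the highest of all 8 hearts and the other 3 SIRT1 KO hearts were below all WT hearts. *Orc3* had the only positive value of the complex, 0.057, and its other probes gave -0.0012 and 0.13.

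Of the 8 genes of helicase loading, which are *Cdc6*, *Cdt1* and the 6 subunits of the helicase they load, 7 lay below 0. The subunits *Mcm2* to *Mcm7* had log2 fold changes of -0.099, -0.13, -0.11, -0.037, -0.056 and -0.10. *Mcm6* had 5.40, 5.68 and 5.63 in WT replicates 1 to 3 (replicate 4 was an outlier spot and was left out, so 3 hearts stood against 4) and 5.34, 5.53, 5.58 and 5.61 in the SIRT1 KO hearts. The *Mcm6* values of the genotypes thus covered almost the same range. *Cdc6*, the ATPase that helps to place the MCM ring, had log2 signals of -0.58, -0.58, -0.57 and -0.37 in the WT hearts and -0.88, -0.75, -0.79 and -0.55 in the SIRT1 KO hearts. SIRT1 KO replicate 4 alone reached the WT range, and the log2 fold change of *Cdc6* was -0.22 (adjusted p = 0.211 from limma). *Cdt1*, its partner in loading, had a log2 fold change of 0.026 (95% confidence interval -0.21 to 0.27).

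All 6 genes of helicase activation lay below 0, from -0.29 for *Cdc45* to -0.074 for *Gins4*. *Cdc45*, which joins the MCM ring to make the active helicase, had log2 signals of -1.05, -0.88, -0.74 and -0.73 in the WT hearts and -1.36, -1.19, -1.04 and -1.0 in the SIRT1 KO hearts. Its genotypes overlapped only through WT replicate 1, which lay just below SIRT1 KO replicates 3 and 4 (adjusted p = 0.167 from limma; exact two-sided permutation test p = 0.0857). The GINS subunits *Gins1*, *Gins2* and *Gins3* had log2 fold changes of -0.13, -0.17 and -0.13, and *Mcm10*, which helps the helicase to start, had -0.077. SIRT1 KO replicate 1 was the lowest of the 8 hearts in all 6 of these genes, against 13.0% of all genes tested.

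The polymerases and primase ranged on both sides of 0. *Pole*, the catalytic subunit of the leading strand polymerase, was lowest with -0.21 (adjusted p = 0.261 from limma), with 1.81, 1.71, 1.90 and 2.12 in the WT hearts and 1.57, 1.73, 1.73 and 1.68 in the SIRT1 KO hearts. *Pold1*, the catalytic subunit of the lagging strand polymerase, had the highest value of all 44 genes, 0.091 (95% confidence interval -0.15 to 0.33), but -0.037 on its dimmer probe. *Pola1* and *Pola2*, of the polymerase that starts each strand, had -0.18 and -0.12, and the primase subunit *Prim1* had -0.025. Of the genes that process and join the fragments of the lagging strand, *Fen1*, a flap nuclease, had a log2 fold change of -0.20 and *Lig1*, a ligase, had -0.11. *Rpa2*, of the protein that covers single-stranded DNA, had 0.031, with all SIRT1 KO values above the lowest WT value. No gene of these roles had an unadjusted p under 0.05 with limma, while *Pole*, *Pola1* and *Fen1* each had a 95% confidence interval reaching below -0.40.

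Among the genes of nucleotide supply, *Tyms* had the lowest fold change of all 44 genes after *Rfc4*, with a wide spread. *Tyms*, thymidylate synthase, had log2 signals of 2.58, 3.16, 2.92 and 2.80 in the WT hearts and 2.30, 2.60, 2.85 and 2.44 in the SIRT1 KO hearts. The spread within each genotype was 0.24 (SD), and the log2 fold change of *Tyms* was -0.32 (95% confidence interval -0.66 to 0.023, adjusted p = 0.263 from limma). *Rrm1*, the large subunit of ribonucleotide reductase, had 3.80, 3.91, 3.83 and 3.75 in the WT hearts and 3.43, 3.49, 3.85 and 3.56 in the SIRT1 KO hearts. Replicate 3 was again the SIRT1 KO heart within the WT range, and the log2 fold change of *Rrm1* was -0.24 (adjusted p = 0.207 from limma). Without that heart *Rrm1* passed the threshold beside *Rfc4*, in a fit that called 7.12% of all probes, against 4.88% with all hearts. *Tk1*, thymidine kinase, had a log2 fold change of -0.028 over 3 WT and 4 SIRT1 KO hearts, since its spot on WT replicate 4 was also an outlier.

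**Figure D2:**
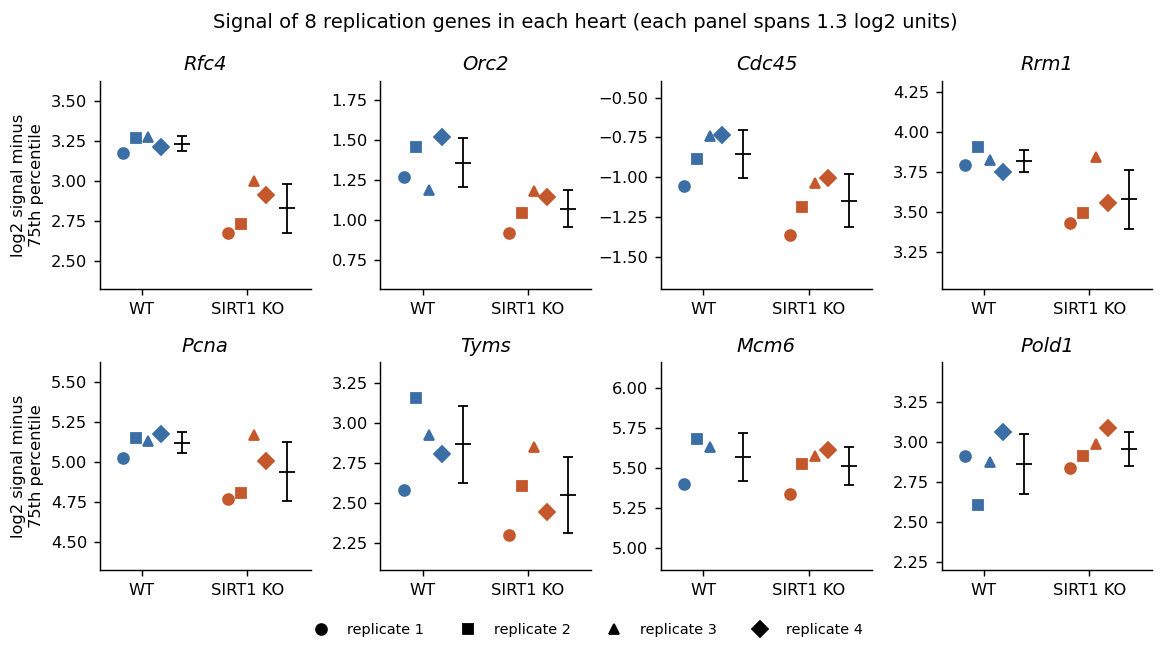
Log2 signal minus the array's 75th percentile in each heart for 8 replication genes, with a marker shape for each replicate and the mean ± SD of each genotype beside the points; *Mcm6* has 3 WT values. *Rfc4* and *Orc2* show no overlap between genotypes, SIRT1 KO replicate 3 (triangle) is the highest SIRT1 KO heart for *Rrm1*, *Pcna* and *Tyms*, and *Mcm6* and *Pold1* overlap throughout.

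Of the 4 genes that rebuild chromatin behind the fork, 3 were close to the median of the whole group and *Uhrf1* was near 0. *Chaf1a* and *Chaf1b*, subunits of the chromatin assembly factor that deposits histones on new DNA, had log2 fold changes of -0.16 and -0.14. *Dnmt1*, which copies DNA methylation onto the new strand, had -0.13 (95% confidence interval -0.29 to 0.035), with 1.20, 1.38, 1.23 and 1.32 in the WT hearts and 1.18, 1.15, 1.09 and 1.20 in the SIRT1 KO hearts. *Uhrf1*, which brings DNMT1 to half-methylated sites, had 0.0076 and -0.069 on its other probe. *E2f1*, the transcription factor, had -0.36, 0.11, -0.02 and 0.23 in the WT hearts and -0.42, -0.25, -0.35 and -0.10 in the SIRT1 KO hearts. WT replicate 1 lay among the SIRT1 KO hearts, and the log2 fold change of *E2f1* was -0.27 (95% confidence interval -0.57 to 0.034, adjusted p = 0.285 from limma).

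Seen heart by heart, the difference was uneven. The median deviation of the 44 genes from their WT mean was -0.285 in SIRT1 KO replicate 1, -0.142 in replicate 2, -0.027 in replicate 3 and -0.071 in replicate 4. In the WT hearts it was -0.088, 0.020, 0.012 and 0.063, so SIRT1 KO replicates 3 and 4 lay within the range of the WT hearts. SIRT1 KO replicate 1 was below all WT hearts in 34 of the 44 genes, against 3919 of 13569 among all genes tested. It was the lowest of all 8 hearts in 30 of the 44 (68.2%), against 13.0% of all genes tested. It is also the heart with the highest liver marker level, and the part of that signal in the result was not tested. Without it the median log2 fold change of the replication genes was -0.085, 34 of 44 lay below 0 and none passed the threshold with limma; without both hearts of high liver marker level the median was -0.075, 37 of 44 lay below 0 and again none passed.

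**Figure D3:**
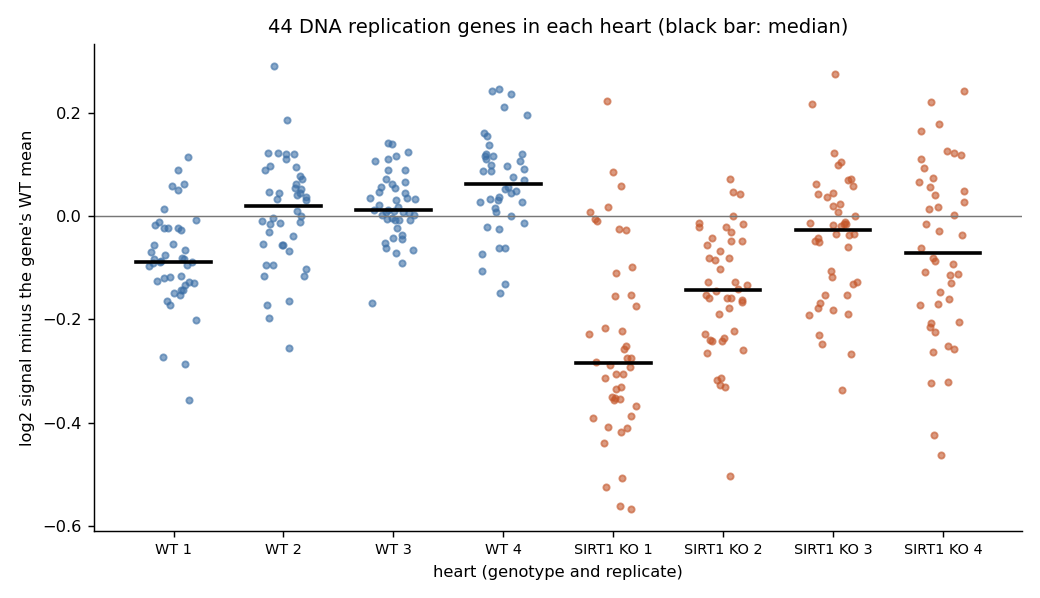
Log2 signal of each of the 44 replication genes minus its WT mean, by heart, with the median as a black bar. The median is lowest in SIRT1 KO replicate 1 (-0.285), next in replicate 2 (-0.142), and within the range of the WT medians (-0.088 to 0.063) in SIRT1 KO replicates 3 and 4.

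Mitosis genes, which act later in the cell cycle, were set beside the replication genes in the same hearts. Of 38 listed, 37 were tested, 32 of them lay below 0 in SIRT1 KO with a median of -0.193 (log2 fold change), and the limma threshold was passed by none; 4 had an unadjusted p under 0.05, all of them lower. These 4 are 10.8% of the list, against 20.4% of all genes in either direction and 8.53% downward, and 51.6% of all genes lay below 0. The hearts were ordered differently by the replication and the mitosis genes. SIRT1 KO replicate 4 had a median deviation from the WT mean of -0.587 over the mitosis genes and was the lowest of all 8 hearts in 34 of 37 (91.9%), where the replication genes had -0.071 and 11.4%, and all genes tested had -0.027 and 21.7%. SIRT1 KO replicate 3 had 0.125 over the mitosis genes and was the highest heart in 21 of 37. Over all genes tested it had 0.022 and was the highest heart in 2165 of 13590. In WT replicate 4 the mitosis genes likewise lay below their WT mean in 35 of 37 (median -0.142) while the replication genes lay above it in 33 of the 42 measured there (median 0.063).

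Among the roles, the helicase loading genes showed this split most plainly, and the roles differed in SIRT1 KO replicate 4. There the median deviation from the WT mean was -0.263 for nucleotide supply, -0.192 for origin recognition and -0.161 for the clamp and its loader. It was -0.121 for helicase activation but 0.015 for the polymerases and primase. Of the 8 helicase loading genes only 1 lay below its WT mean in that heart (median deviation 0.045), and all 8 were above the mean of the SIRT1 KO hearts, by a median of 0.184. Of all 44 replication genes, 32 were above the mean of the SIRT1 KO hearts there, as were all 6 of helicase activation. That mean includes SIRT1 KO replicate 1, the lowest of the 8 hearts in 7 of the 8 helicase loading genes. In SIRT1 KO replicate 4, 36 of 37 mitosis genes were below the mean of the SIRT1 KO hearts, by a median of -0.374. *Mcm4* had 4.51 in SIRT1 KO replicate 4, its highest of all 8 hearts, whereas *Kif2c*, a kinesin that corrects spindle attachments, had -2.32 there, against -1.58 to -1.11 in the WT hearts. The members with an E2F word in their promoter had a median deviation of 0.034 in SIRT1 KO replicate 4, and those without had -0.158. In SIRT1 KO replicates 1, 2 and 3 the corresponding medians were -0.243 and -0.319, -0.093 and -0.158, and -0.025 and -0.028. In WT replicates 1, 2 and 4 they ran the other way, -0.094 and -0.083, -0.0068 and 0.020, and 0.056 and 0.087. In WT replicate 3 they were 0.015 and 0.0094.

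**Figure D4:**
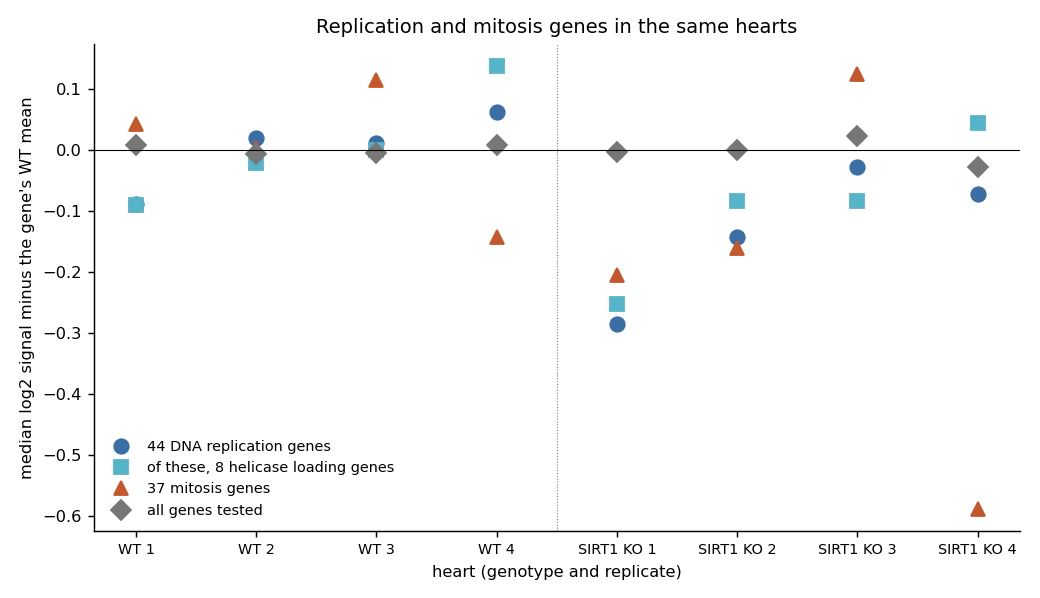
Median log2 signal minus the gene's WT mean in each heart, for the 44 replication genes, the 8 helicase loading genes among them, 37 mitosis genes and all genes tested. In SIRT1 KO replicate 4 the mitosis genes lie at -0.587 and the helicase loading genes at 0.045, while in SIRT1 KO replicate 1 both lie below -0.20; all genes tested stay near 0.

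Other genes of replication and of the G1 to S step gave a similar picture. Of 71 listed, 69 were tested; 55 lay below 0, the median log2 fold change was -0.099, 13 had an unadjusted p under 0.05, all with lower signal in SIRT1 KO, and 2 passed the threshold with limma, both lower. These are 18.8% and 2.9% of the list, against 20.4% and 4.58% of all genes in either direction and 8.53% and 0.897% downward. *Cdc25a*, a phosphatase that switches on the S-phase kinase, had log2 signals of -3.35, -3.12, -3.35 and -3.44 in the WT hearts and -3.60, -4.01, -4.21 and -4.0 in the SIRT1 KO hearts. All SIRT1 KO hearts were below all WT hearts, and *Cdc25a* fell by 0.64 on the log2 scale (standard error 0.13, adjusted p = 0.0294 from limma). *Cdkn1a*, which encodes the inhibitor p21 that acts against the same kinases, also had fully separate genotypes, 0.68 to 0.90 in WT and 0.37 to 0.46 in SIRT1 KO, and fell by 0.34 (standard error 0.074, adjusted p = 0.0372 from limma). An activator and an inhibitor of the kinases that start S phase were thus both lower. With 1 heart left out the call of *Cdc25a* was lost in 6 of 8 fits (adjusted p between 0.0119 and 0.084 from limma, passing only without SIRT1 KO replicate 1 or SIRT1 KO replicate 3), and that of *Cdkn1a* in all 8 (0.0506 to 0.0928). The *Cdc25a* probe was dim, with a mean log2 signal of -3.32 in the WT hearts, though well above background on all 8 arrays. With another background correction *Cdc25a* had -0.24 (adjusted p = 0.12 from limma).

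*Rpa3*, the small partner of RPA2, had 2.17 to 2.36 in the WT hearts and 1.84 to 2.07 in the SIRT1 KO hearts, with no overlap (log2 fold change -0.30, adjusted p = 0.0724 from limma). *Rpa2*, from the same complex, had 0.031, as given above. *Clspn*, which links the fork to the checkpoint kinase, had -0.33 (adjusted p = 0.0841 from limma) and *Cdk6*, a kinase of G1, had -0.38 (adjusted p = 0.104 from limma). Their probes were dim too, with mean log2 signals of -3.50 and -3.31 in the WT hearts. Among the mitosis genes the smallest p-values belonged to *Ttk*, a spindle checkpoint kinase, *Cenpf*, a kinetochore protein, and *Kif2c*, with log2 fold changes of -0.37, -0.36 and -0.47 and adjusted p-values from limma of 0.184, 0.190 and 0.205.

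The median log2 fold change of the replication genes was -0.117 relative to that of all genes, while its absolute value followed the scaling of the arrays. Scaling by 1 value per array moves all genes alike and so leaves this difference as it is. Over all settings the difference lay between -0.078 (without SIRT1 KO replicate 1) and -0.149 (with another background correction). The 6 genes above 0 as reported (*Pold1*, *Orc3*, *Rfc1*, *Rpa2*, *Cdt1* and *Uhrf1*) were all below 0 with median scaling and with no scaling. These scalings moved the median of all genes from -0.0069 to -0.135 and -0.227, a shift larger than the highest of the 6 values (0.091), so the signs turn by construction. The share of all called probes that were higher in SIRT1 KO was 81.4% as reported. It was 10.1% with no scaling, 38.1% with median scaling, 71.5% with cyclic loess and 63.9% with quantile normalization.

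**Figure D5:**
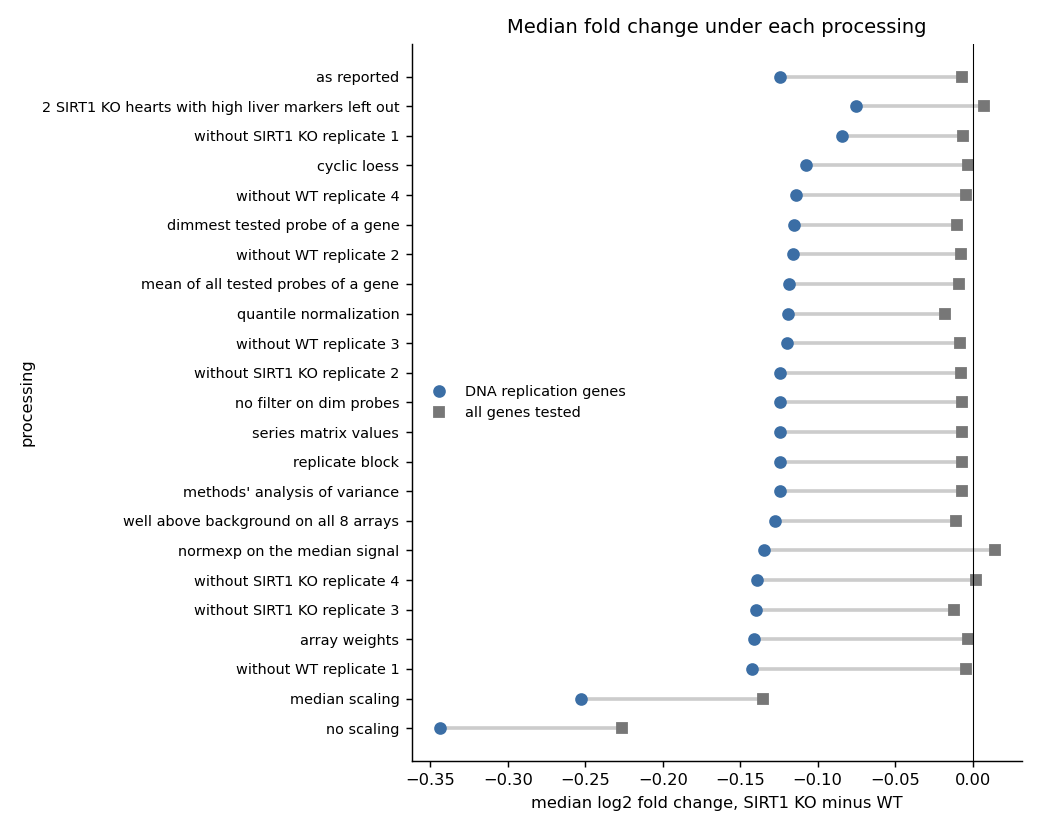
Median log2 fold change (SIRT1 KO minus WT) of the replication genes (circles) and of all genes tested (squares) under each way of processing. The circles lie left of the squares in each row, and both shift to the left with median scaling and with no scaling.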

How the data were processed

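The authors deposited, for each of the 8 arrays, the scanner output of Agilent Feature Extraction with its one-color defaults (version 12 in the submitters' processing notes and 12.0.0.7 per the file headers; the methods name an earlier version). The values used are processed intensity, after background subtraction and with no scaling between arrays; the deposited table of the whole series holds the same intensity values in 100% of spots. Here log2 was taken and scaled by subtracting the 75th percentile of the array's spots that are no controls. Control and outlier spots were left out, and spots of a probe were averaged. Accessions were matched without versions to RefSeq names of GRCm38.p6 (28223 of 41174 probes, 19096 genes).

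The 25615 probes above background (well above it on 4 or more of 8 arrays) were fitted on genotype by lmFit and eBayes of limma 3.58.1, run in R 4.3.3, with Benjamini-Hochberg adjustment over all of them at 0.05. For single genes the exact permutation test over hearts, two-sided, is given too. A gene is given by its probe of highest mean signal. Named genes are those past the threshold or with separate genotypes, those of smallest p and of highest and lowest fold change in each role, and at most 3 more of each other list; a few further members were chosen after their values were seen, to describe each role. The members and lists were chosen with earlier results of these data known. Hearts are taken as separate embryos from the labels, and p-values measure the spread between these hearts; 4 arrays per genotype limit the precision. On simulated arrays (25535 probes, 200 changed by 1 on the log2 scale) the fit recovered 84.5% of the changed probes, and 5.06% of its calls were false. Changes as small as those of the replication genes (-0.40 to 0.09) were not simulated, so their recovery is not known. For the marker lists not described in the text, the summed level in multiples of the 75th percentile was 226 to 271 in WT and 221 to 260 in SIRT1 KO for 8 fibroblast and epicardial markers, 510 to 558 and 441 to 538 for 14 erythroid markers (*Hbb-bh1* above background in no heart) and 2.74 to 3.86 and 2.58 to 4.27 for 8 macrophage markers; 1 of 8 thymocyte markers and 0 of 6 lung markers could be tested. Scripts used Python 3.11.15, numpy 2.4.6, pandas 2.3.3, scipy 1.17.1 and matplotlib 3.10.9.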

Additional observations from a re-analysis of the deposited data

Results flagged for a closer look

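Over the replication genes, 86 groups of 4 hearts were checked for a single heart far from the other 3, by the gap to its nearest neighbour as a share of the group's range, and 4 stood out, where chance alone marks about 1 in 20 groups. *Orc1* in SIRT1 KO replicate 4 had a log2 signal of -3.023, with the nearest SIRT1 KO heart at -3.383. *Cdc6* in WT replicate 4 had -0.3689, with the nearest WT heart at -0.5671. *Gins3* in WT replicate 1 had -0.3522, below the nearest WT heart at -0.1763. *Tk1* in SIRT1 KO replicate 3 had 3.231, with the nearest SIRT1 KO heart at 2.847.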

How the results depend on the processing

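The sources used here give no mean signal column and no gene name column, so naming by the array's gene names was not run and normexp was run on the median signal, a choice made after seeing the data, as was leaving out SIRT1 KO replicates 1 and 4 together. The median log2 fold change of the replication genes stayed below 0 in every fit; it was -0.253 with median scaling, -0.344 with no scaling and between -0.142 and -0.085 with 1 heart left out. The number of replication genes called was 1 as reported, 0 with the methods' analysis of variance, with no filter on dim probes, with the replicate block and without SIRT1 KO replicates 1 and 4, 2 with normexp, 29 with no scaling and 0 to 2 with 1 heart left out. *Rfc4* kept its direction in all of these; its adjusted p was 0.0687 with the analysis of variance, 0.0748 with no filter and 0.0523 with the replicate block, each with a log2 fold change of -0.40, and 0.148 with -0.37 without SIRT1 KO replicates 1 and 4; with 1 heart left out its log2 fold change was -0.46 to -0.35. Probes called were 1250 as reported, 2277 with array weights, 546 with the analysis of variance, 6352 with no scaling, 2631 with normexp, 646 without SIRT1 KO replicates 1 and 4 and 657 to 1825 with 1 heart left out. Other replication genes called were 2 as reported, 4 with array weights and with normexp, 6 with median scaling, 1 with the analysis of variance and with the replicate block, 0 with no filter, 35 with no scaling and 0 to 4 with 1 heart left out.

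Signs turned only for genes near 0. With median scaling *Pold1*, *Rfc1*, *Orc3*, *Rpa2*, *Cdt1* and *Uhrf1* had -0.037, -0.076, -0.071, -0.097, -0.10 and -0.12, and with no scaling -0.13, -0.17, -0.16, -0.19, -0.19 and -0.21. The dimmest probe gave -0.037 for *Pold1*, -0.0012 for *Orc3* and -0.069 for *Uhrf1*, and the mean of all probes -0.031 for *Uhrf1*. Array weights gave -0.0054 for *Cdt1* and cyclic loess 0.0042 for *Tk1*. Without SIRT1 KO replicates 1 and 4, *Rpa2*, *Cdt1*, *Tk1* and *Uhrf1* had -0.0093, -0.063, 0.075 and -0.043. With 1 heart left out the ranges were -0.012 to 0.062 for *Rpa2*, -0.045 to 0.10 for *Cdt1*, -0.13 to 0.042 for *Tk1* and -0.040 to 0.053 for *Uhrf1*.

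The labels give samples of the 2 genotypes the same replicate numbers and no shared litter or batch. Deviations from the genotype means of same-numbered samples correlated by 0.204, 0.207, 0.056 and 0.141, each the highest for that number, which is a hint of pairing from the data; since 1 pair was under 0.1, the numbers were not taken to pair the samples. The replicate block moved the probes called from 1250 to 1185; the pairing changed no other call among the genes named than those of *Rfc4* and *Cdkn1a* (adjusted p = 0.080 from limma). The slide, which holds 1 genotype each, cannot be told apart from genotype, and the cause of the lost calls was not tested.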
